A study of Mus musculus with 2 samples.

Results

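The keratin genes described here were measured in E14 cells, a mouse embryonic stem cell line of blastocyst origin and 129/Ola strain background, in which both Ago1 and Ago2 are labelled as knocked out. The members were all protein-coding genes of the GENCODE M21 annotation whose symbol is Krt followed by a number, which gave 53 genes of 47643 gene IDs in the files and of 21620 protein-coding genes. Keratin-associated protein genes (Krtap) were left out, as were the pseudogenes Krt74 (14 and 12 counts in replicates 1 and 2) and Krt8-ps (21 and 19 counts). The data were polyA RNA-seq counts from 2 libraries of this 1 genotype, replicate 1 with 34798975 gene counts and replicate 2 with 29789560. Both were grown in 15% serum and 100 U/mL LIF on plates coated with 0.2% gelatine. Cells with intact Ago genes were not analysed here, so the levels describe knockout cells and are not set against a control. Separate cultures or clones are not mentioned in the labels, so technical and biological spread between the libraries cannot be told apart. Reads were assigned to the targeted genes in both libraries, 70.8 and 141 CPM (counts scaled to a library total of 1e6) for Ago1 and 124 and 129 CPM for Ago2. Ago1 thus differed between the libraries (2463 and 4205 counts) while Ago2 was similar, and the reason was not tested. Counts over whole genes check no edited exon.

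Keratins are the intermediate filament proteins of epithelia. Filaments form only when an acidic type I chain pairs with a basic type II chain, so each epithelium makes matched sets. Simple, single-layered epithelia use mainly Krt8, Krt18, Krt19, Krt7 and Krt20. Stratified epithelia such as epidermis use pairs such as Krt5 with Krt14 in basal cells and Krt1 with Krt10 above them, and the hair follicle has keratins of its own in the root sheath and the shaft. Krt8 and Krt18 are the first keratins of the mouse embryo and mark its trophectoderm. In mouse the type I genes lie in a cluster on chromosome 11 and the type II genes in a cluster on chromosome 15, with the type I gene Krt18 next to Krt8 at the end of the type II cluster.

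The windows at gene starts are shown for 3 abundant keratins (Krt8, Krt18, Krt42), for the lower simple keratin Krt7, and for the hair shaft keratin Krt31, which had no count. Each runs from 250 bases before to 10 bases after the RefSeq start (GRCm38.p6), 5′ to 3′ on the gene's strand. Capitals mark TATAAA, the core of the TATA box, and GGGCGG, the GC box, on either strand.
Krt8: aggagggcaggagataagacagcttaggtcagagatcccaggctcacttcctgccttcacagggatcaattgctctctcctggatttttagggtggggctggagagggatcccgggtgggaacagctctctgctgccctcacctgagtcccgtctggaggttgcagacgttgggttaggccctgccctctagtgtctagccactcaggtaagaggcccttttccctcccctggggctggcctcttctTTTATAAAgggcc
Krt18: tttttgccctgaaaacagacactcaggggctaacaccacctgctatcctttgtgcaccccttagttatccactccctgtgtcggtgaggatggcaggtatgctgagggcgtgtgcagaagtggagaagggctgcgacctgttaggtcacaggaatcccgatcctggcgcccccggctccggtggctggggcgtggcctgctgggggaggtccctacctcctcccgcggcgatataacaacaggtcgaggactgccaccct
Krt42: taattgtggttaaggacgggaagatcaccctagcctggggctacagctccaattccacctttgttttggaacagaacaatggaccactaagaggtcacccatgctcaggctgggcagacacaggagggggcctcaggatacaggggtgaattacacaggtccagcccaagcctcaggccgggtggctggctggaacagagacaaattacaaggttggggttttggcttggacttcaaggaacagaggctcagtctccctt
Krt7: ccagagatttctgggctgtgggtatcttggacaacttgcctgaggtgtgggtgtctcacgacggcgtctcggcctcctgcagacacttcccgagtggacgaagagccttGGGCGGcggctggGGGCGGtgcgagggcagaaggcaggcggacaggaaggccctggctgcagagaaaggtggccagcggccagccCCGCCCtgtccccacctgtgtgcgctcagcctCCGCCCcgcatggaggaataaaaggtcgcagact
Krt31: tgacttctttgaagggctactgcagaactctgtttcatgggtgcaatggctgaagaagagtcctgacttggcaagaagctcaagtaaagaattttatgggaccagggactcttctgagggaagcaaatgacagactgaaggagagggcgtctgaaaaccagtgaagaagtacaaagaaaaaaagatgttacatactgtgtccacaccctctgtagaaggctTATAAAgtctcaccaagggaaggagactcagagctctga
These lie at chr15:102004333-102004592 (minus strand), chr15:102027966-102028225 (plus), chr11:100269942-100270201 (minus), chr15:101412153-101412412 (plus) and chr11:100050542-100050801 (minus). Krt8 has overlapping TATAAA matches on both strands at its RefSeq start, Krt31 has a match 29 bases upstream, Krt18 has none, and Krt7 has 4 GC boxes and no TATAAA. Krt42 has a match after its start, outside the stretch shown. RefSeq starts can differ from GENCODE gene ends. The Krt7 window lies wholly inside its GENCODE gene, which begins at 101411043. The RefSeq start of Krt8 lies inside its gene, which ends at 102004482. Match positions hold for the RefSeq starts only.

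Of the 53 keratins, 13 reached 1 CPM in both libraries, the threshold used here for a gene called expressed. That is 24.5% of the keratins, against 58.0% of all protein-coding genes. A count was seen in either library for 37 keratins (69.8%), against 79.7% of all protein-coding genes, and 16 had none. All 5 simple epithelial keratins were expressed, 5 of 18 stratified keratins were, and none of 8 root sheath and 15 hair shaft keratins was. Of 7 keratins given no class here, 3 were expressed. The median log2(CPM + 1) was 5.80 ± 0.29 (SD, n = 2) for simple keratins, 0.45 ± 0.01 for stratified keratins and 0 for both hair classes, against 2.36 ± 0.06 for all protein-coding genes. Keratins together took 0.0510% of gene counts in replicate 1 and 0.0479% in replicate 2.

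**Figure D1:**
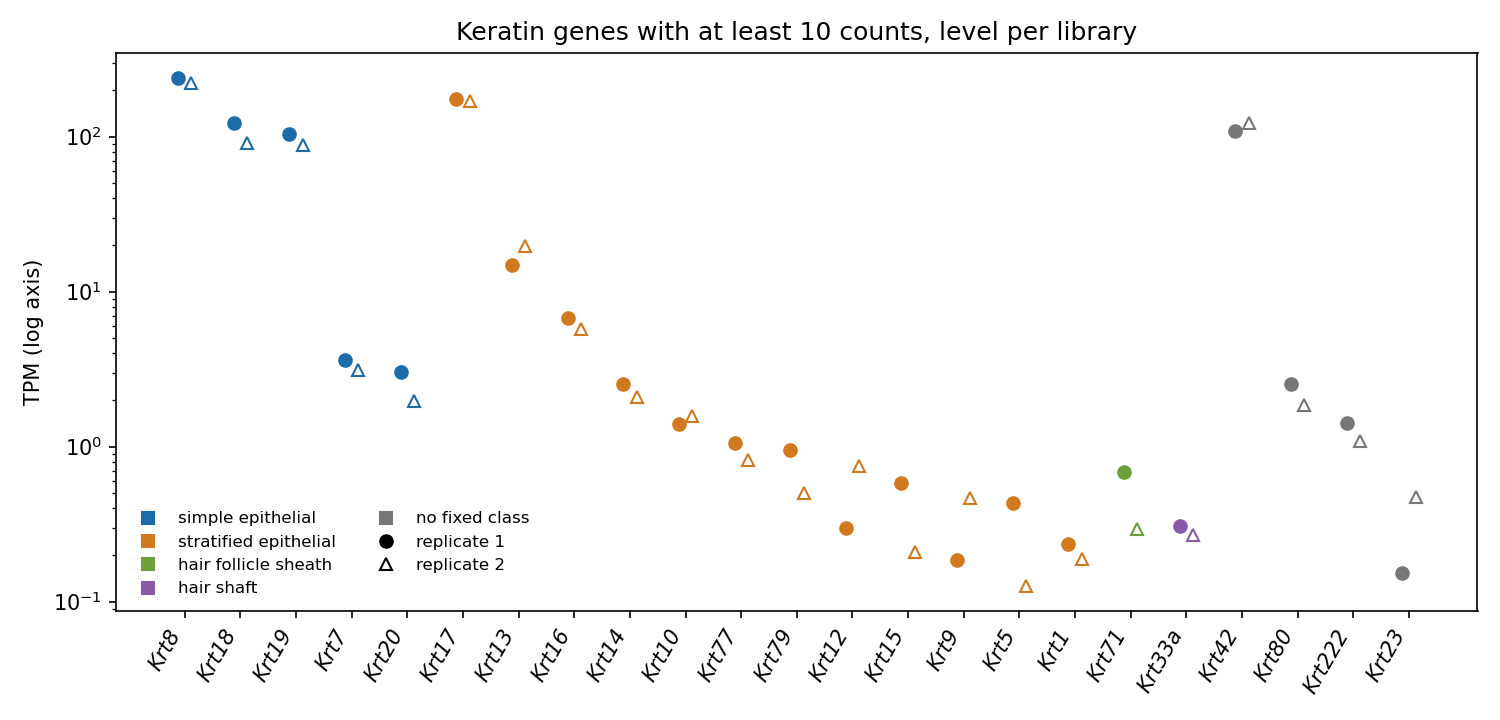
Level of each keratin gene with at least 10 counts over both libraries, in TPM on a log axis, for replicate 1 (filled circles) and replicate 2 (open triangles), coloured by class and ordered by level within a class. Krt8, Krt17, Krt42, Krt18 and Krt19 lie near or above 88.4 TPM in both libraries, and every other gene lies below 20 TPM.

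Among the simple keratins, Krt8 (ENSMUSG00000049382; GRCm38 chromosome 15, 101996698 to 102004482, minus strand), the type II chain of the pair found in nearly all simple epithelia, had 5863 counts in replicate 1 and 4740 in replicate 2. These equal 168 CPM (95% Poisson interval 164 to 173) and 159 CPM (155 to 164). In TPM, which scales counts to gene length so that genes can be compared, Krt8 stood at 238 and 224, the highest keratin in both libraries. Of its 50-base stretches 29.7% recur in other genes, mostly in Krt8-ps, so some of its reads may have been lost or split. Krt18 (ENSMUSG00000023043; chromosome 15, 102028180 to 102032027, plus strand), its type I partner, had 2202 and 1414 counts, or 63.3 CPM (60.7 to 66.0) and 47.5 CPM (45.0 to 50.01). On the TPM scale Krt18 stood at 122 and 90.9. Krt8 thus exceeded Krt18 in both libraries, by 1.95-fold and 2.46-fold in TPM. Krt19 (ENSMUSG00000020911; chromosome 11, 100140810 to 100148665, minus strand), a short type I keratin of ductal epithelia, had 2423 and 1776 counts, or 69.6 CPM (66.9 to 72.5) and 59.6 CPM (56.9 to 62.5). Its TPM of 104 and 88.4 overlapped the range of Krt18.

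The other simple keratins were far lower. Krt7 (ENSMUSG00000023039; chromosome 15, 101411043 to 101430313, plus strand), a type II chain of ducts and trophoblast, had 321 and 238 counts, or 9.22 and 7.99 CPM. Its level per length depends on the gene model, at 3.37 ± 0.353 TPM over all annotated exons (7049 bases) and 4.21 ± 0.426 TPM over its longest coding transcript (4094 bases). Krt8 exceeded it by 65.8-fold and 71.7-fold in TPM over all exons, and by 38.2-fold and 41.6-fold over the longest coding transcripts. Krt20 (ENSMUSG00000035775; chromosome 11, 99428403 to 99438150, minus strand), a type I keratin of gut epithelium, had 73 and 41 counts, or 3.01 and 1.96 TPM.

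The stratified class was carried by Krt17. Krt17 (ENSMUSG00000035557; chromosome 11, 100256217 to 100261029, minus strand), a type I keratin of skin appendages and wounded epidermis, had 3398 and 2856 counts, or 97.6 CPM (94.4 to 100.99) and 95.9 CPM (92.4 to 99.5). At 172 ± 2.80 TPM it was second among keratins, below Krt8 in both libraries by 1.37-fold and 1.31-fold. It took 82.5% of stratified keratin counts in replicate 1 and 81.0% in replicate 2 (95% Clopper-Pearson intervals 81.3 to 83.6% and 79.7 to 82.3%). Only 3.99% of its 50-base stretches recur in other genes, mostly in Krt14. Krt17 exceeded Krt14 by 68.8-fold and 80.9-fold in TPM and Krt16 by 25.8-fold and 29.7-fold.

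Other stratified keratins reached 1 CPM at lower levels. Krt13 (ENSMUSG00000044041; chromosome 11, 100117327 to 100121566, minus strand), a type I keratin of oral and oesophageal epithelium, had 342 and 391 counts, or 9.83 and 13.1 CPM. Its level per length was 17.4 ± 3.47 TPM. Krt16, which is induced in injured epidermis, had 133 and 97 counts, and 37.6% of its stretches recur in Krt14 and a pseudogene. Krt14, the type I keratin of basal cells, had 56 and 40 counts, and 13.9% of its stretches recur in Krt16 and Krt17. Krt10, the type I keratin of suprabasal epidermis, had 37 and 36. An annotated antisense gene with 10 and 6 counts overlaps Krt10.

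The type II partners of these epidermal keratins were under 1 CPM in both libraries. Krt5, the basal partner of Krt14, had 12 and 3 counts, and Krt1, the partner of Krt10, had 13 and 9. Krt6a, which pairs with Krt16 and Krt17 in appendages, had 1 count in each library, and Krt6b had 1 and 0. Of the 50-base stretches of Krt6a, Krt6b and Krt5, 57.2%, 50.1% and 12.2% recur in other genes, so their counts may be too low. Krt4, the partner of Krt13, had 2 and 1. Per length, Krt14 had 2.53 and 2.10 TPM against 0.434 and 0.126 TPM for Krt5. Krt10 had 1.39 and 1.57 TPM against 0.234 and 0.188 TPM for Krt1, and Krt13 had 14.9 and 19.8 TPM against 0.0745 and 0.0433 TPM for Krt4. In each of these pairs the type I chain was the higher in both libraries. Among the remaining stratified keratins, Krt79 had 57 and 26 counts, Krt77 39 and 26, Krt12 7 and 15, Krt15 13 and 4 and Krt9 6 and 13. Of the Krt12 stretches 42.0% lie in an overlapping antisense gene. Krt78 had 3 and 5, Krt2 had 0 and 1, and Krt76 had none.

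Keratins of no fixed class were led by Krt42. Krt42 (ENSMUSG00000053654; chromosome 11, 100262882 to 100269871, minus strand) is a type I gene beside Krt17, and RefSeq lists ecat6 among its synonyms, a name from a series of transcripts catalogued in mouse embryonic stem cells. It had 2429 and 2336 counts, or 69.8 CPM (67.1 to 72.6) and 78.4 CPM (75.3 to 81.7). Its TPM of 109 and 122 overlapped that of Krt18. Over the longest coding transcripts the values did not overlap, at 90.7 and 102 TPM for Krt42 and 88.2 and 66.2 TPM for Krt18. Of the 50-base stretches of Krt42, 0.234% recur elsewhere. Krt80, a type II gene at the end of its cluster, had 203 and 129 counts, or 5.83 and 4.33 CPM. Krt222, a keratin-like type I gene, had 59 and 39 counts, and Krt23 had 3 and 8. Krt88 had 2 and 3, Krt90 had 1 and 0, and Krt24 had none.

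Hair keratins had very few counts. All 23 together had 42 counts in replicate 1 and 19 in replicate 2. Krt71, a type II keratin of the inner root sheath, had 19 and 7 of these, and the shaft keratin Krt33a had 8 and 6. The other 21 had at most 6 counts each over both libraries. Of these, Krt75 had 6 and 0, Krt83 5 and 0, Krt87 2 and 2, Krt73 0 and 2, Krt84 1 and 1, Krt27 0 and 1 and Krt35 1 and 0, and the 14 others had none. A count of 0 allows up to 0.0862 CPM in replicate 1 and 0.101 CPM in replicate 2, taking 3 counts as the floor. Intervals and floors cover counting error only. Shared sequence reaches 43.3% for Krt86, and reads lost to this were not tested. Of the 56 Krtap genes, whose products embed hair keratins, 4 had a count, at most 18 over both libraries.

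The share of keratin reads by class gives the comparison of simple with stratified and hair keratins. Simple keratins took 61.3% of keratin counts in replicate 1 (60.6 to 62.1%) and 57.5% in replicate 2 (56.7 to 58.4%), stratified keratins 23.2% (22.6 to 23.9%) and 24.7% (24.0 to 25.4%), and hair keratins 0.237% and 0.133%. Keratins of no fixed class took the other 15.2% and 17.6%. Summed counts of simple keratins exceeded those of stratified keratins by 2.64-fold (95% counting interval 2.55 to 2.74) in replicate 1 and 2.33-fold (2.24 to 2.42) in replicate 2. In TPM these folds were 2.31 and 2.01. Without Krt17 the fold in counts was 15.1 and 12.3. Krt42, with 13.7 and 16.4% of keratin counts, was given no class and is in neither sum, so these folds depend on the classes chosen. Against hair keratins the fold in counts was 259 (192 to 360) and 432 (276 to 718). No test between classes was made, since the members of a class are not replicates.

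**Figure D2:**
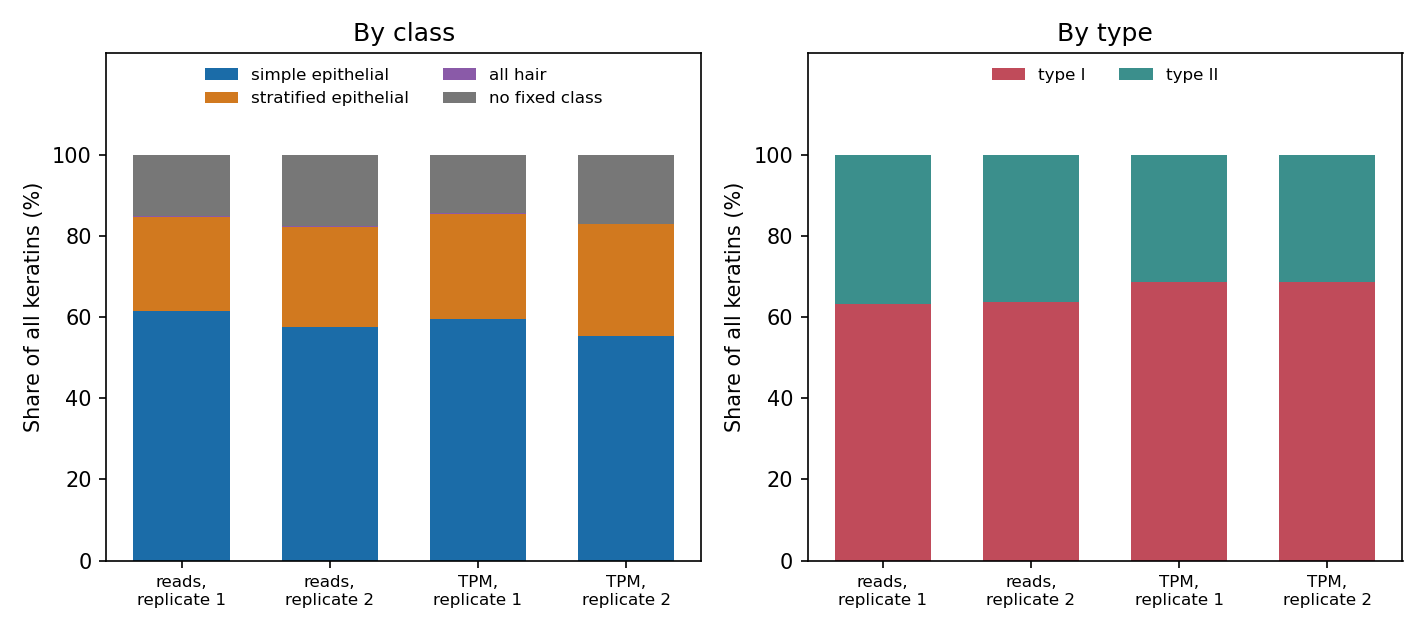
Share of all keratins, in percent, taken by each class (left) and each type (right), for read counts and for TPM in both libraries. Simple keratins take the largest share and hair keratins, 0.237% and 0.133% of counts, are barely visible, while type I chains take 63.1 and 63.6% of counts.

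Type I chains exceeded type II chains in sum. Type I genes took 63.1% of keratin counts (62.4 to 63.8%) in replicate 1 and 63.6% (62.8 to 64.4%) in replicate 2, and 68.5 and 68.6% of keratin TPM. The sum of type I TPM was 540.4 and 506 against 248 and 231 for type II, a fold of 2.18 and 2.19. Of type I genes 10 of 28 were expressed, and of type II genes 3 of 25. Krt8 alone made 89.5 and 91.3% of type II counts, whereas Krt17, Krt42, Krt18 and Krt19 shared the type I sum. Among simple keratins alone type I chains took 48.6 and 44.4% of TPM over all exons. Over the longest coding transcripts they took 50.3% in replicate 1 and 46.2% in replicate 2. An excess of type I as large as that in all keratins is thus not seen within the simple class.

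In genomic order the expressed keratins stood in blocks. In the type I cluster (chromosome 11, 99232761 to 100269871, 27 keratins), the 8 neighbouring genes from Krt13 to Krt42, which span 153 kb, held 6 of 9 expressed genes. They took 97.9% of that cluster's counts in replicate 1 (97.6 to 98.2%) and 98.1% in replicate 2 (97.8 to 98.4%). Krt17 and Krt42 are 1.85 kb apart. The 19 genes from Krt222 to Krt36 took 2.09 and 1.91%, none of them with a mean above 1.74 CPM. In the type II cluster (chromosome 15, 101347444 to 102032027, 26 keratins including Krt18), Krt8 and Krt18 at one end took 92.1% (91.6 to 92.7%) and 93.1% (92.5 to 93.7%). Krt80 and Krt7 at the other end took 5.99 and 5.55%. None of the 22 genes between them reached 1 CPM in both libraries, and together they took 1.87 and 1.32%. These blocks were described after the values were seen.

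Genes outside the clusters differed in level. Eif4b, a translation initiation factor gene 41746 bases beyond Krt18, stood at 1361 ± 37.2 CPM, and Eif1, another initiation factor gene 50014 bases beyond Krt42, at 353 ± 1.83 CPM. Smarce1, a chromatin remodelling gene 1744 bases from Krt222, stood at 78.7 ± 2.29 CPM, although Krt222 itself had 1.70 and 1.31 CPM. At the Krt80 end the nearest protein-coding gene, 6030408B16Rik, had 1 count in each library.

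**Figure D3:**
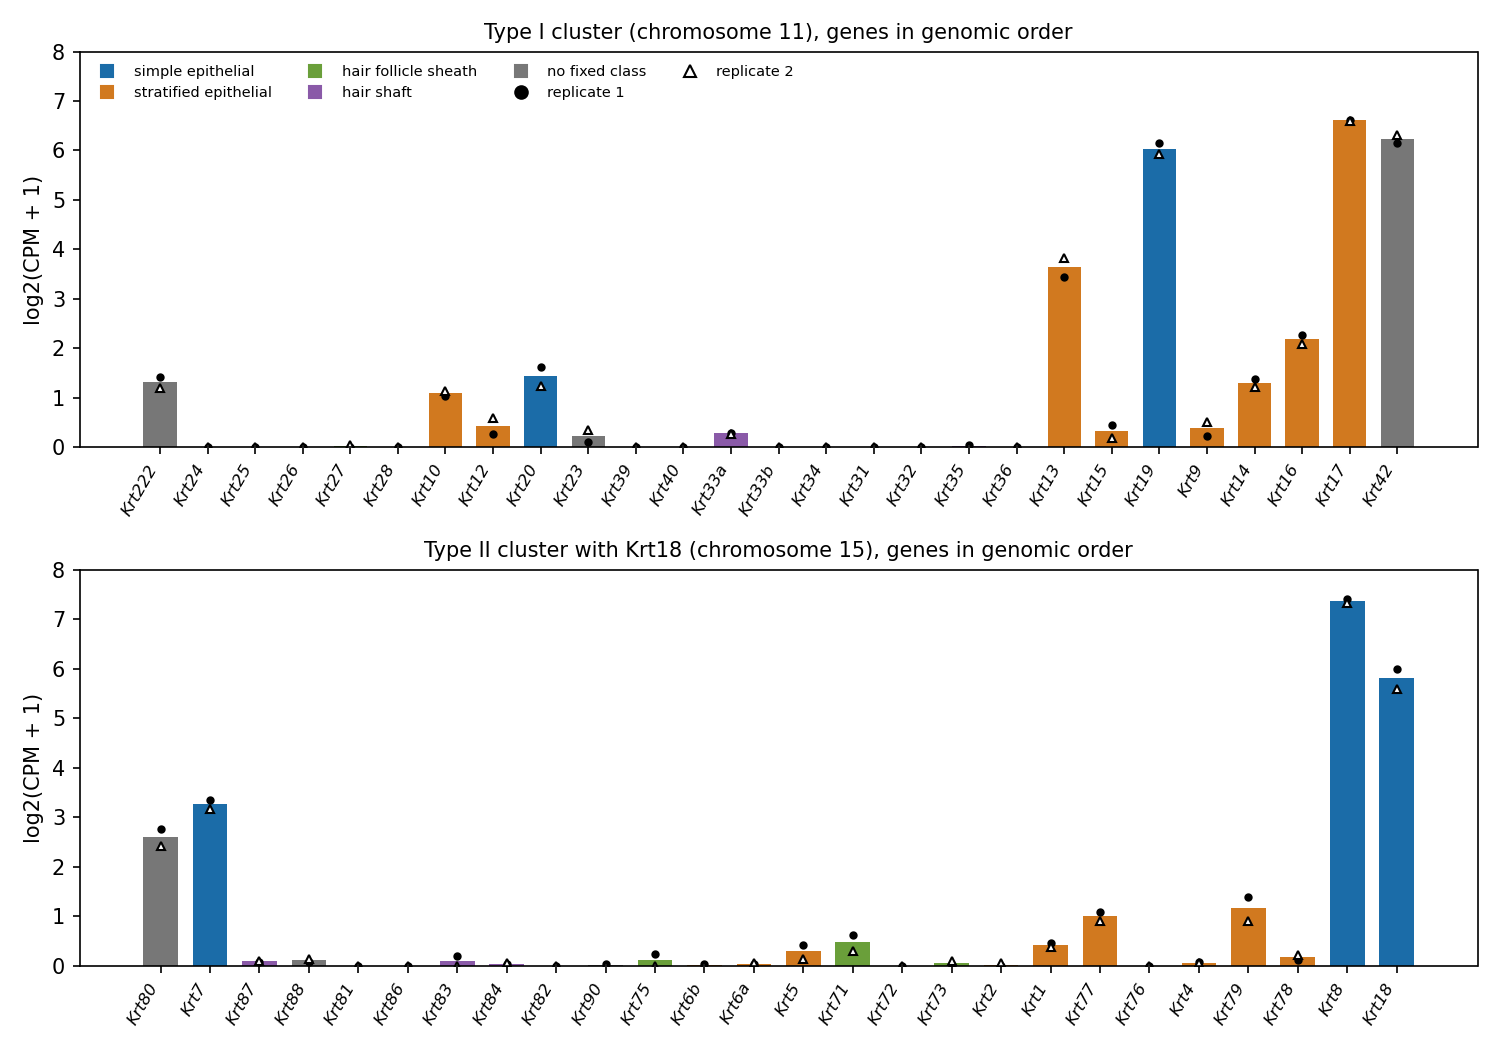
Level of every keratin gene as log2(CPM + 1), in genomic order, in the type I cluster (top) and the type II cluster with Krt18 (bottom); bars are means of 2 libraries, circles replicate 1 and triangles replicate 2. High genes stand at the Krt13 to Krt42 end of the first cluster and the Krt8 and Krt18 end of the second. Krt8 reaches 168 and 159 CPM there, while Krt7 and Krt80 at the other end have means of 8.61 and 5.08 CPM.

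RefSeq windows of 300 bases (250 before to 50 after the start) were matched for 36 of the 53 keratins. Keratins were counted per gene, with a match in any window of Krt13 taken, and the backgrounds per window. TATAAA was found on either strand in 19 of 36, or 52.8%, against 13.6% of all 32851 windows in the table. In 12 of them (33.3%) it began 25 to 35 bases upstream, against 2.12% of all windows, a band chosen after the values were seen. GGGCGG was found in 2 keratins, Krt7 and Krt75, or 5.56%, against 35.7% of all windows. The motif TGANTCA, the AP-1 site, was found in 1 keratin, Krt13, against 7.81% of all windows. Of the 13 expressed keratins 8 had a window, and Krt17, Krt19, Krt16, Krt80 and Krt222 had none. TATAAA was present in 4 of these 8 (Krt8, Krt42, Krt10 and Krt20) and in 15 of 28 others. Within the band of 25 to 35 bases it was present in 2 of 8 (Krt10 and Krt20) and in 10 of 28. The number of CG dinucleotides per window had a median of 5.5 in expressed keratins and 4.5 in the others, taking each gene's highest window. Over all windows the median was 7. Krt7 with 21 and Krt18 with 17 had the most of all matched keratins, whereas Krt8 had 6 and Krt42 had 2. A match is a description of these letters and not a binding site.

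The libraries were compared with each other to set the error of these levels. Of 23 keratins with at least 10 counts over both libraries, the exact binomial test (two-sided, Benjamini-Hochberg adjustment over all 19078 genes) called 7, or 30.4%. The background was 24.2% of all tested genes and 28.8% of tested protein-coding genes, so the keratins' share is near it. This test weighs differences against counting error only, so it calls smaller differences in genes with more counts. The backgrounds were not matched for counts. In replicate 2 Krt13 and Krt42 were higher and Krt18, Krt19, Krt8, Krt80 and Krt79 were lower, against backgrounds of 11.2% higher and 13.1% lower. edgeR's exact test includes a spread between libraries that follows a trend over level and is estimated from these same libraries. The common biological coefficient of variation, a summary over the tested genes, was 10.01%. edgeR's exact test called none of the 23, against 0.456% of all genes. Its spread comes from the differences it tests, so few calls are built in. In that test 1 keratin, Krt18, had an unadjusted p under 0.05.

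Krt18 had the smallest adjusted p, with a log2 ratio of replicate 2 over replicate 1 of -0.42 ± 0.05 (SE from counting). Its adjusted p was 6.64e-16 by the exact binomial test and 0.63 by edgeR's exact test. Its type II partner Krt8 differed less, by -0.08 ± 0.03 (adjusted p = 0.0145 in the exact binomial test). Krt19 was lower by -0.23 ± 0.05 (adjusted p = 7.85e-06 in the exact binomial test). Krt13 was higher by 0.42 ± 0.11 and Krt42 by 0.17 ± 0.04, adjusted p = 0.000840 and 0.000676 by the exact binomial test. Krt17, beside Krt42, had a ratio of -0.03 ± 0.04 and was not called. Krt80 (-0.43 ± 0.16) and Krt79 (-0.90 ± 0.34) were called, adjusted p = 0.0365 and 0.0354 by the exact binomial test. All 5 simple keratins had ratios below 0, of which 3 were called, against 28.8% called of tested protein-coding genes. Over the 23 tested keratins 17 ratios were below 0, with a median of -0.23. Over the 14881 tested protein-coding genes 7880 were below 0, with a median of -0.02. After removal of a trend on GC content and length, 4 keratins were called (Krt13, Krt42, Krt18 and Krt19). Of the others, Krt8 then had a ratio of -0.0042 (adjusted p = 0.97, exact binomial test). Krt80 (-0.35) and Krt79 (-0.84) kept most of their ratios, with adjusted p = 0.116 and 0.0528 in that test.

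**Figure D4:**
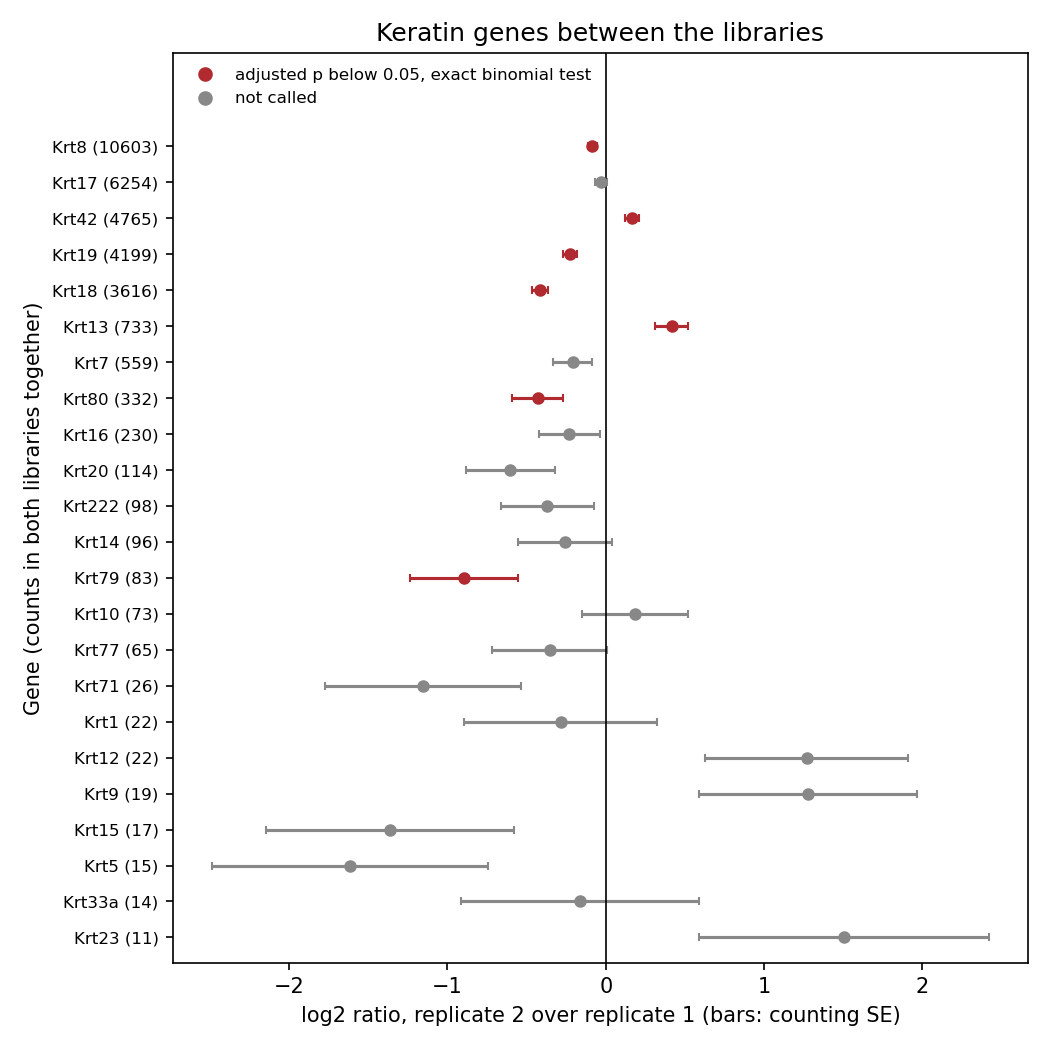
Log2 ratio of replicate 2 over replicate 1 for the 23 keratins with at least 10 counts, ordered by count, with counting SE as bars. Red points passed the exact binomial test after adjustment (2 higher, 5 lower in replicate 2), and grey points did not.

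Genes of epithelia, desmosomes and other intermediate filaments were read from lists. The epithelial adhesion list also holds genes of regulators, such as Grhl2, Ovol1 and Esrp1, and of protease inhibitors, such as Spint1. All 21 genes of this list were expressed. Cdh1 (E-cadherin, 349 ± 9.99 TPM), the claudin gene Cldn4 (285 ± 21.6 TPM) and Epcam (245 ± 24.1 TPM) led. The transcription factor genes Ovol1 (3.85 ± 0.612 TPM) and Ehf (1.34 ± 0.283 TPM) were lowest. All 21 were tested, and the exact binomial test called 7 higher and 6 lower in replicate 2, against 11.2% higher and 13.1% lower of all tested genes and 28.8% called of tested protein-coding genes. These shares are the background for the other lists too. They are not matched for counts, and genes with more counts are called more readily, so no excess is read from them. Of 16 desmosome and plakin genes, whose products anchor keratin filaments, 12 were expressed. Jup (plakoglobin, 123 ± 1.25 TPM), Pkp4 (67.1 ± 3.16 TPM) and Dst (44.2 ± 1.23 TPM) led, Dsp (desmoplakin) stood at 35.5 ± 2.81 TPM, and Dsg1a and Dsc1, the cadherins of suprabasal epidermis, had no count. Of 13 tested, the same test called 2 higher and 6 lower, against 11.2% and 13.1% of all tested genes. Of 16 other intermediate filament genes 14 were expressed, led by the nuclear lamin genes Lmnb1 (413 ± 40.2 TPM) and Lmnb2 (85.5 ± 0.466 TPM) and the neurofilament gene Nefl (38.3 ± 1.41 TPM). Vim (vimentin), the filament of mesenchymal cells, stood at 34.9 ± 3.17 TPM, below Krt8, Krt17, Krt42, Krt18 and Krt19. Gfap and Bfsp2 were lowest. Of 15 tested, 3 were higher and 6 lower in replicate 2 in the exact binomial test, against the same 11.2% and 13.1%. No gene of these lists passed edgeR's exact test.

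Genes of keratinocytes and hair follicles were lower as lists. Of 15 keratinocyte and cornified envelope genes 6 were expressed, among them Sfn (114 ± 7.10 TPM), the transglutaminase gene Tgm1 (55.0 ± 0.699 TPM) and Krtdap (52.3 ± 6.80 TPM). Trp63, which encodes the master regulator of stratified epithelium, had 8 and 6 counts, the envelope gene Lor had 6 and 5, and Ivl, Flg, Sprr1b and Dsg1a had none. Of 9 hair follicle genes 1 was expressed, Padi3 (2.47 ± 0.543 TPM), while Foxn1 and Hoxc13, regulators of hair keratin genes, had 11 and 2, and 32 and 22 counts. In the exact binomial test 1 of 9 tested genes of the keratinocyte list was higher (Sfn) and 2 were lower (Krtdap and Lgals7) in replicate 2, near the 28.8% called of tested protein-coding genes. Of 8 tested genes of the hair list 1 was lower (Dlx3), against 13.1% of all tested genes. edgeR's exact test called none of them.

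**Figure D5:**
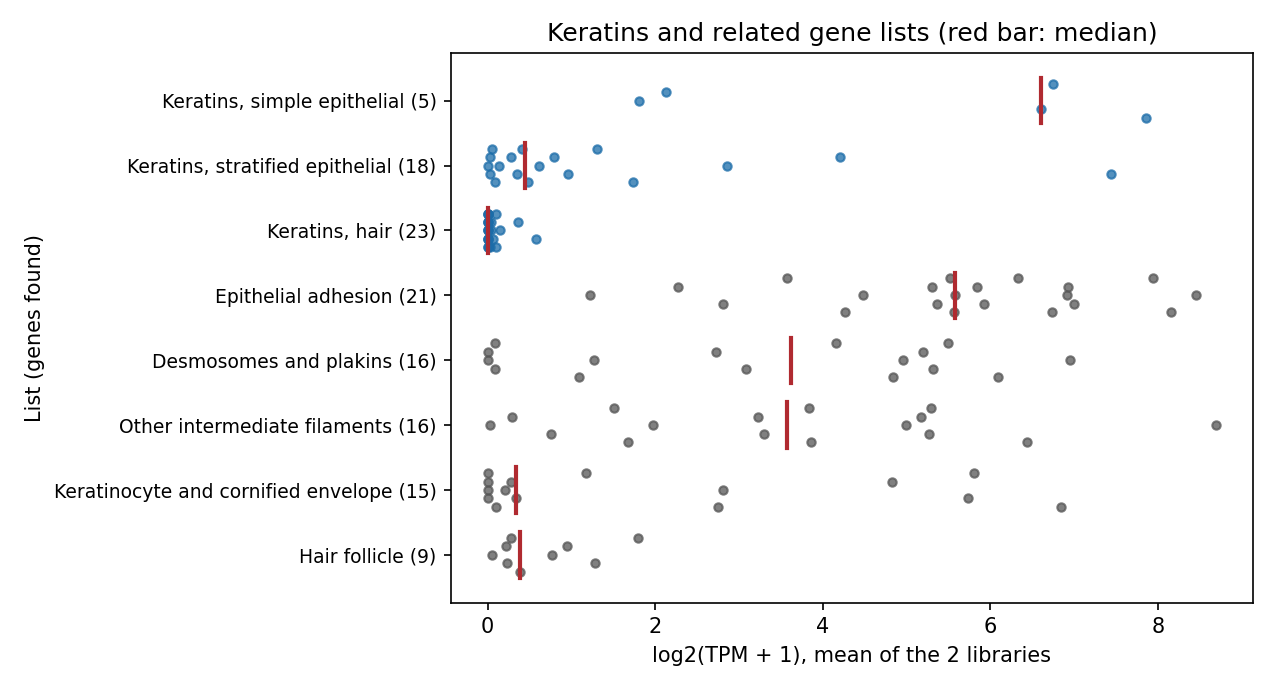
Mean level of each gene as log2(TPM + 1) in keratin classes (blue) and related lists (grey), with the number of genes found in brackets and the median as a red bar. The medians are 6.60 for simple keratins, 5.57 for the epithelial adhesion list, 0.44 for stratified keratins, 0.34 for the keratinocyte list and 0 for hair keratins.

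Markers of embryonic stem cells and of other cell types were read beside these levels. The embryonic stem cell markers were all expressed (8 of 8), summing to 17912 and 16307 TPM in replicates 1 and 2. Most of each sum came from Dppa5a, at 13780 and 12192 TPM. Of 9 surface ectoderm and keratinocyte markers 2 were expressed (Krt14 and Krt10). The 9 together summed to 5.43 and 5.01 TPM, with Ivl and Flg at 0. Krt14, Krt10, Krt5 and Krt1 of this list are keratins described above. They give most of its sum, so the list is not separate from the keratin levels. Of 11 trophoblast markers 3 were expressed. The 11 together summed to 44.3 and 49.5 TPM, of which Tfap2c gave 34.5 ± 6.10. The other expressed ones were Eomes, with 189 and 139 counts, and Ascl2, with 170 and 98. Cdx2 had 5 and 6 counts, and Tpbpa and Prl3d1 none. Of 11 extraembryonic endoderm markers 3 were expressed, Lama1 (24.6 ± 0.545 TPM), Col4a1 (5.68 ± 0.313 TPM) and Gata4 (3.57 ± 0.734 TPM). The 11 together summed to 34.8 TPM in each library, with Gata6 at 8 and 3 counts and Ttr and Afp at 0. Of 8 fibroblast markers 2 were expressed, Thy1 (22.0 ± 1.11 TPM) and Col1a1 (1.07 ± 0.298 TPM). The 8 together summed to 24.1 and 23.0 TPM, most of it from Thy1, with Col3a1, Lum and Postn at 0. Their part in the keratin levels was not tested. In bulk samples, few cells with much keratin RNA and many cells with little cannot be told apart.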

How the data were processed

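The authors deposited 1 table of raw counts per Ensembl gene for each of the 2 libraries. Trizol extraction, 1 ug of total RNA as input and strand-specific (reverse) TruSeq libraries are per the labels' protocols. STAR 2.4.2a and mm10 (GRCm38) are named in the submitters' processing notes. How reads were counted, with which strand setting, annotation and rule for multiply mapped reads, is not given in the sources used here, so antisense genes may share reads and near-identical keratins may lose them.

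Of 47643 IDs, 47224 were named with GENCODE M21 and 419 stayed in the totals. CPM used library totals. TPM used the union of annotated exons. Intervals are 95% exact Poisson (CPM) or Clopper-Pearson (shares). A single genotype allows no genotype test. Genes with at least 10 counts were tested for a difference of replicate 2 from replicate 1 with the exact binomial test (two-sided, TMM library sizes from edgeR 4.0.16, Benjamini-Hochberg, 0.05), and ratios had 0.5 counts added. The alternatives were edgeR's exact test with a trended dispersion from both libraries, DESeq2 1.42.0 size factors, library totals, other filters, thresholds and pseudocounts, TPM, a lowess correction on GC content and length, and leaving out each library. TPM on the longest coding transcript was chosen after seeing the data. The tests were also run on simulated counts, with counting noise only and with an added library spread, and the outcome is not used here. Shared sequence is the share of a gene's 50-base stretches found in other annotated genes. Promoter windows are from RefSeq (GRCm38.p6).

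The members, classes, lists and tests were chosen with earlier results of these data known. The rule named every keratin with at least 10 counts, and of each other list the 3 highest and 2 lowest members by TPM and called members with at least 100 counts, of which the text gives a part. Of the symbols listed, Krt85 and Eppk1 were not analysed here.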

Additional observations from a re-analysis of the deposited data

How the results depend on the processing

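Without one replicate, 13 to 15 keratins reached 1 CPM, the simple share was 57.5 to 61.3%, the type I share 63.1 to 63.6%, and the class medians were 5.60 to 6.01 (simple), 0.44 to 0.45 (stratified), 0 (both hair classes) and 0.12 to 0.34 (no fixed class). At 5 CPM 7 keratins were expressed in place of 13. The simple median was 6.60 in log2(TPM + 1), 6.27 with the longest coding transcript and 4.78 as a mean over the class. The stratified median was 0.43 and 0.38 in those 2 TPM forms, 1.06 as a mean, -1.11 with a pseudocount of 0.1, 0.98 over members with at least 10 counts and 0.40 with the keratins of no fixed class added. The root sheath and hair shaft medians were -3.32 each with a pseudocount of 0.1, 0.0815 and 0.0354 as means, and 0.47 and 0.28 over members with at least 10 counts, which are 1 gene each. The median of no fixed class was 0.40 in TPM, -1.93 with a pseudocount of 0.1, 1.50 as a mean and 1.96 over members with at least 10 counts.

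The simple share was 40.1% without members of over 10% shared sequence, which removes Krt8, and 27.2% without Krt8 and Krt18. These 2 exclusions remove the main simple genes by construction. The type I share was 68.6% in TPM, 69.6% with the longest coding transcript, 94.7% without members of shared sequence, since Krt8 then drops out, and 41.3% among simple keratins alone. Between libraries, edgeR's exact test called 87 of all genes in place of 4624 and 0 keratins in place of 7, and removal of the trend on GC content and length left 4 keratins, with log2 ratios of -0.35 for Krt80, -0.84 for Krt79 and -0.0042 for Krt8 among those lost. That removal turned the log2 ratio of Krt17 to 0.052, in place of -0.03, with Krt17 not called in either case, and the cause was not tested. DESeq2 size factors, library totals and a filter of 50 counts each called the same 7 keratins, and a filter of 1 count called 6, without Krt80. No paired analysis was possible because there is 1 group. The 16 keratins with no count were not detectable at this depth, and reads lost to shared sequence were not tested. The filter of 10 counts kept out the 14 with 1 to 9 counts.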
